A study of Mus musculus with 2 samples.

Results

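Genes of the mature neutrophil, 10 in number, were followed through maps of open chromatin in an earlier cell, the common myeloid progenitor of mouse bone marrow. They were S100a8, S100a9, Ltf, Camp, Ngp, Lcn2, Mmp8, Mmp9, Cd177 and Padi4, out of the 20807 protein-coding genes on chromosomes 1 to 19. The choice was by name, for what their proteins do, and was made with earlier results of these data known. Their accessible regions were of 2 kinds. A promoter region came within 1 kb of any annotated transcription start of the gene (GENCODE M21), and a distal region was any other region whose nearest protein-coding start, within 100 kb, belonged to the gene. By this rule the genes held 14 of 65789 regions in the stricter peak list described below, and 30 of 114557 in the less strict one.

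The assay was ATAC-seq: a transposase inserts sequencing adapters where DNA is free of nucleosomes and other proteins, and the reads pile up there. There were 2 libraries of 1 group, biological replicates 1 and 2, each made from 50000 primary common myeloid progenitors of adult male C57BL/6J mice aged 5 to 6 weeks. Both carry the same donor label, so nothing shows that they came from separate animals, and agreement between them may be partly technical. No other cell type or treatment was included, so each value is set beside the same value over all genes or all regions of the list. Lists of mature neutrophils were not analysed here.

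Neutrophils build their granules in steps. Primary granules, with myeloperoxidase and elastase, are filled at the promyelocyte stage, secondary granules, with lactoferrin, at the myelocyte stage, and tertiary granules, with gelatinase, later still. In mouse and human, expression of secondary granule genes needs C/EBP epsilon, a transcription factor that appears as promyelocytes become myelocytes, while C/EBP alpha and PU.1 already act in progenitors. Among the 10 genes, Ltf, Camp, Ngp, Lcn2 and Mmp8 encode secondary granule proteins and Mmp9 a tertiary granule protein. S100a8 and S100a9 encode the subunits of calprotectin, which is mainly cytosolic, Cd177 encodes a surface glycoprotein that is also stored in granules, and Padi4 encodes a nuclear enzyme, so the name granule genes covers them loosely.

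The main list was the conservative one, made from both replicates and thresholded by the irreproducible discovery rate (IDR), a measure of how poorly the ranks of a peak agree between replicates. In it, 2 of the 10 genes had a promoter region, Mmp8 and Mmp9, against 63.5% of all protein-coding genes. Distal regions numbered 12 and lay at 6 genes (S100a8, S100a9, Ltf, Mmp8, Mmp9 and Padi4), against 58.6% of all genes with at least 1. The mean was 1.2 distal regions per gene for the 10 and 2.06 over all genes, whose median was 1. Camp, Ngp, Lcn2 and Cd177 had no region of either kind, 4 of 10 against 20.9% of all genes. Mmp9 counted only through an internal start of a processed transcript, a non-coding product. With starts of protein-coding transcripts alone, Mmp8 was the 1 gene of 10 with a promoter region, against 62.0% of the 20722 genes with such a start.

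A less strict list holds peaks replicated between the libraries, and in it 6 of the 10 genes had a promoter region, against 71.1% of all genes. The additional genes were S100a8, Ltf, Camp and Padi4. Distal regions numbered 22 and lay at 8 genes, against 68.5% of all genes with at least 1. Only Lcn2 had no region of either kind there, against 15.9% of all genes. An archived list of replicated peaks, derived from earlier files and holding 217607 regions, gave a promoter region at 10 of 10, against 76.5% of all genes. In the replicates' own IDR-thresholded lists the count was 2 of 10 in replicate 1, against 59.0% of all genes, and 2 of 10 in replicate 2, against 54.5%. Both times the 2 genes were Mmp8 and Mmp9.

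**Figure D1:**
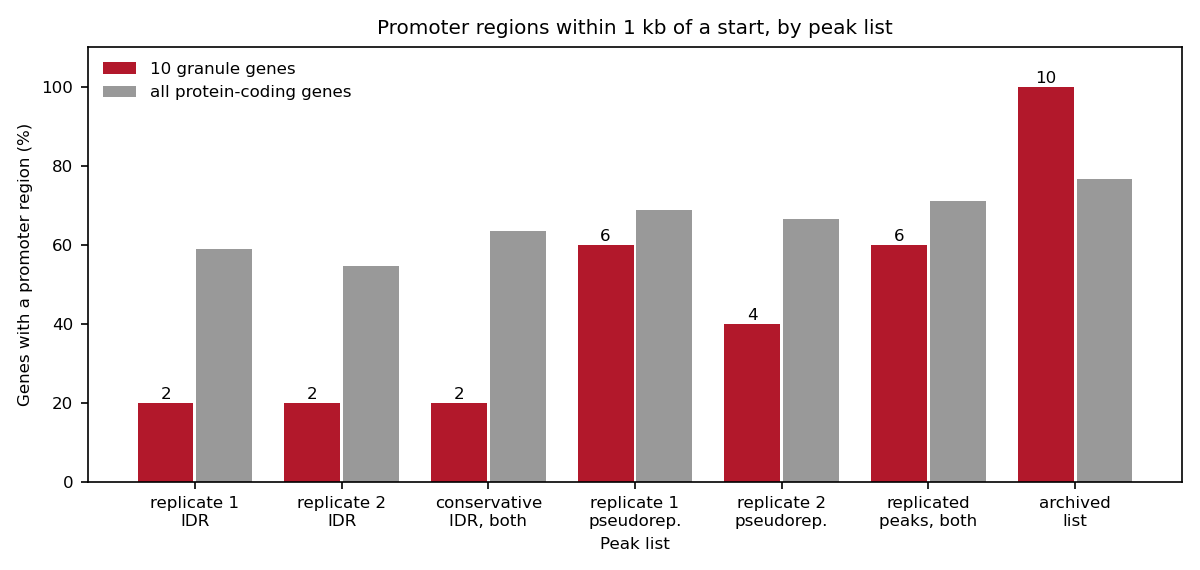
Share of genes with a promoter region (y axis, percent) in 7 peak lists (x axis), for the 10 granule genes (red, with the number of genes above each bar) and for all protein-coding genes (grey). The granule genes stood at 2 of 10 in the 3 IDR-thresholded lists plotted, at 6 of 10 in the replicated-peaks list and at 10 of 10 in the archived list, where the share over all genes was 76.5%.

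The cells' label was checked against marker genes in the conservative list. All 9 common myeloid progenitor markers had a promoter region, against 63.5% of all genes, while 0 of 3 B cell, 0 of 3 T cell and 0 of 2 NK cell markers did. The strongest promoter signals of Kit, Cd34, Flt3, Spi1 and Cebpa were at percentiles 44.7 to 75.5. Those of Fcgr3, Gata2, Runx1 and Mpo were low, at percentiles 7.55 to 9.46. The NK cell marker Klrb1c had 10 distal regions. Of the macrophage markers, Adgre1 (percentile 84.4) and Cd68 (percentile 3.35) had a promoter region and C1qa and Marco had none. The 4 macrophage markers together had 13 distal regions, 8 of them at Marco. Of the late erythroid markers on chromosomes 1 to 19, Hbb-bs had a promoter region and Slc4a1 had none. An open promoter is a weak marker of a cell type, and the part of other cells in the values below was not tested. No other progenitor was among the cells contrasted, so these markers cannot tell the common myeloid progenitor from other progenitors. In a bulk library, a weak region may be open in few cells or partly open in many, which cannot be told apart.

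Mmp8, the neutrophil collagenase of secondary granules, was the 1 gene with a conservative region over its own coding start. The region spans chr9:7558056-7558564 (mm10) with its summit 72 bp upstream of the start. Its signal, the height that the authors gave each peak on a scale that is not stated, was 10.7, at percentile 73.3 of all regions in the list and 65.8 of the promoter regions. The signal was 10.2 in the own list of replicate 1 and 9.85 in that of replicate 2, at percentiles 68.6 and 53.2. The region thus stood above the middle of the list in both libraries, with an IDR of 0.00043. Among the promoter regions of the own lists alone it stood at percentiles 61.9 in replicate 1 and 48.5 in replicate 2. The flanking matrix metalloproteinase genes were not all alike, since Mmp27 had a promoter region and Mmp10 and Mmp20 had none.

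The remaining coding starts had weaker regions or none, and the RefSeq promoter sequences (GRCm38.p6) of 5 genes are shown to set the open Mmp8 promoter beside the weak Camp and S100a8 promoters and the Ngp and Lcn2 promoters that had no region. Each runs 5′ to 3′ on the strand of the gene from 250 bp before to 50 bp after the RefSeq start. Capitals mark matches on either strand. The motif of C/EBP factors was searched as TTGCNNAA and that of PU.1 as GAGGAAGT. The letters for RUNX factors were TGTGGT, and for the TATA box they were TATAAA. The AP-1 motif was searched as TGANTCA, the motif of GATA factors as the letters AGATAA, and CTCF by a core motif. Positions are of the first base of a match, counted from the RefSeq start. The RefSeq start is not always the GENCODE start from which positions of regions are counted, so these positions cannot be compared directly.
Mmp8 promoter (chr9:7558179-7558478, + strand): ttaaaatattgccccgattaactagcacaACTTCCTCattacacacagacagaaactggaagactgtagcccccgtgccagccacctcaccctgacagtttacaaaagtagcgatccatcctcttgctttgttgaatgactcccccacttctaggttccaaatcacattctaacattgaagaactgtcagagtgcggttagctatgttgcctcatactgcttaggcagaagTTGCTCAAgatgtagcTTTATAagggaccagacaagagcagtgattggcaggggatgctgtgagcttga
Camp promoter (chr9:109849407-109849706, - strand): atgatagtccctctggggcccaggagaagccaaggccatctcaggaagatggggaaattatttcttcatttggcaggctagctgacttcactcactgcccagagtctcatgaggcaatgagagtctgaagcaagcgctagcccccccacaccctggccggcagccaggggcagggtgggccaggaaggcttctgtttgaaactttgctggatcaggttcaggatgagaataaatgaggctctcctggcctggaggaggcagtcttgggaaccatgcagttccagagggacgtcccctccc
S100a8 promoter (chr3:90668821-90669120, + strand): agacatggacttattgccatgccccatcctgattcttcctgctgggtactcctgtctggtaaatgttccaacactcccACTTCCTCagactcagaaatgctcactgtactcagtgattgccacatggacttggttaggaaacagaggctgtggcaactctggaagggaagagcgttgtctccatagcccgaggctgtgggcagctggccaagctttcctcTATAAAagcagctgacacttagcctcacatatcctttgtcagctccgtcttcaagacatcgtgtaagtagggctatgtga
Ngp promoter (chr9:110419558-110419857, + strand): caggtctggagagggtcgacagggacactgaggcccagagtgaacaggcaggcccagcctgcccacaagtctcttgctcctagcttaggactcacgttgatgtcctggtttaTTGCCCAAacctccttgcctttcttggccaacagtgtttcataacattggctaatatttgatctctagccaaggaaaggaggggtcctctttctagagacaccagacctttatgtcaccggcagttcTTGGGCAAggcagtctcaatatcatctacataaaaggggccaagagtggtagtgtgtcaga
Lcn2 promoter (chr2:32387690-32387989, - strand): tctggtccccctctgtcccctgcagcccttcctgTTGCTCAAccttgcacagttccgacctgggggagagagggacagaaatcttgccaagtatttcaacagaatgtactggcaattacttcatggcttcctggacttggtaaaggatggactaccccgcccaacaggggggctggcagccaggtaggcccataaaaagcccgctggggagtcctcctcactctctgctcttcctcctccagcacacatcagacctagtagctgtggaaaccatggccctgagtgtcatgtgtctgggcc

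Matches to the C/EBP motif stood in the promoters of 5 of the 9 genes with a RefSeq promoter sequence (S100a9, Ltf, Ngp, Lcn2 and Mmp8), and such a match was in 10.9% of all 31396 RefSeq promoters on chromosomes 1 to 19. Ngp had 2 of them, at −138 and −11 from the RefSeq start, and neither lay in a region of the conservative or the replicated-peaks list. In Mmp8 the match stood at −19 from the RefSeq start, and it lay 26 bp from the summit of the open region. In Ltf it stood at −75, inside the weak region over the start that is described below. In Lcn2 it stood at −216 and in S100a9 at −236, again outside any region of the 2 lists. A TATA box match was in 5 of 9 promoters against 13.6% of all, at −30 in S100a8, −31 in Padi4, −40 in Cd177, 0 in S100a9 and −3, on the other strand, in Mmp8. The PU.1 motif matched in S100a8 and Mmp8, 2 of 9 against 3.25% of all. Matches to the RUNX and GATA motifs were in S100a9 and Ltf, 2 of 9 each, against 16.7% and 11.2% of all promoters, and the AP-1 motif matched in Padi4 only, against 7.84%. The Camp promoter held none of the motifs searched. A match of these letters is not a measure of binding. The 9 promoters had a median of 4 CpG dinucleotides, against 14 over all coding promoters, and motif shares were not compared at like CpG content.

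Camp, which encodes the cathelicidin antimicrobial peptide, had the strongest of the weak promoter regions. It lay at chr9:109849450-109849795 with the summit 14 bp upstream of the start. Its signal was 6.68 in the replicated-peaks list, at percentile 57.6, and its IDR between the replicates was 0.0645, just outside the IDR threshold of 0.05. In the less strict pseudoreplicated lists, which rest on random splits of the reads of 1 replicate, it had 5.95 in replicate 1 and 4.83 in replicate 2, at percentiles 45.8 and 23.0. The other IDR-thresholded list made from both replicates did hold it, at percentile 27, and gave 3 of 10 genes with a promoter region, against 63.4% of all genes.

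Of the replicates' pseudoreplicated lists, only that of replicate 1 held a promoter region of S100a8. The region at chr3:90668788-90669425, centred 20 bp inside the gene, had a signal of 5.65 in the replicated-peaks list, at percentile 46.9, and an IDR of 0.200. It had a signal of 6.00 in the pseudoreplicated list of replicate 1 and no peak in that of replicate 2. Ltf, the gene of lactoferrin, likewise had a region at its start (chr9:111019039-111019339, signal 4.45, percentile 30.5, IDR 0.0654). It had 4.58 in the pseudoreplicated list of replicate 1 and no peak in that of replicate 2. A second Ltf region counted as a promoter lay 16.6 kb inside the gene near a retained-intron start, with a signal of 4.26 and no peak in either replicate's own list.

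Padi4, which encodes an enzyme that converts histone arginine to citrulline, had a weak region over its start in both libraries. At chr4:140774002-140774356 the signal was 3.84 in the replicated-peaks list, at percentile 19.9, and 3.57 and 3.75 in the pseudoreplicated lists of replicates 1 and 2. Mmp9, the gene of gelatinase B, had no region at its upstream coding start in the conservative or replicated-peaks list. A weak region lay at its second coding start, 7.35 kb downstream, with a signal of 3.57. It had 3.28 and 3.49 in the pseudoreplicated lists of replicates 1 and 2. The strongest regions of both genes lay inside the gene body.

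No promoter region was listed for S100a9, Ngp, Lcn2 and Cd177 outside the archived list, and there the regions were mostly faint. The archived signals were 3.09 for S100a9 (percentile 24.8), 2.40 for Ngp, the neutrophilic granule protein (2.60), and 2.75 for Cd177 (11.9). Lcn2, whose product lipocalin 2 binds bacterial siderophores, had an archived region over its start with a signal of 2.64 (percentile 6.39) and another, 1.12 kb upstream of its most upstream start, with 3.90 (percentile 47.5). The archived signals of the regions at Camp (6.87, percentile 74.5) and Mmp8 (10.7, percentile 89.2) were higher. With no read counts in the lists, depth is unknown and the absence of a region means only that none passed the threshold.

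**Figure D2:**
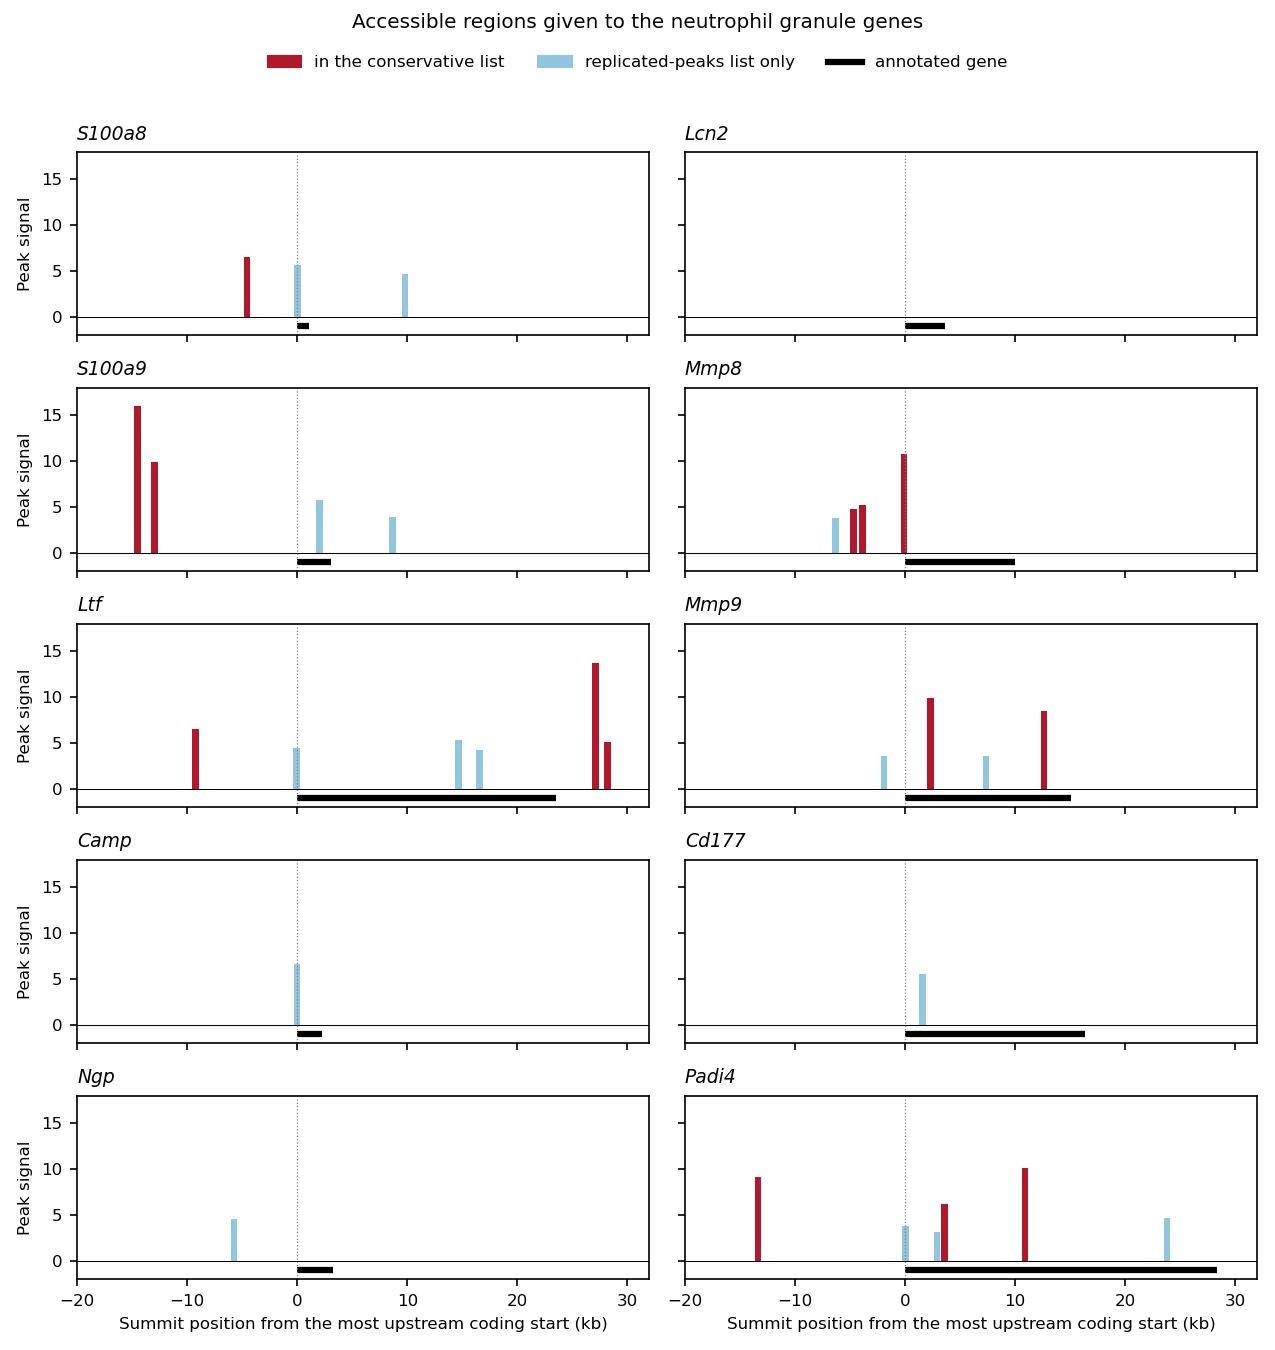
Regions given to each gene in the replicated-peaks list, by the position of the summit from the most upstream coding start (x axis, kb, transcription to the right) and peak signal (y axis, scale not stated). Red bars are also in the conservative list, light blue bars are not, black lines are the annotated genes, and bars have 1 fixed width. The highest red bars are the S100a9 region 14.5 kb upstream (16.0) and the Ltf region 27.1 kb downstream (13.7), Mmp8 has a red bar at its start, and Lcn2 has no bar.

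The 2 strongest conservative regions lay away from the starts, and the Mmp8 region over its start came next. The sequences of 7 regions, 50 bp to each side of the summit and read from the mm10 genome, are shown. These are the regions away from the upstream coding starts with a signal above percentile 50. Each carries a match to a motif searched. The share of all distal regions with any match was not computed, and single motifs matched in 2.72% to 20.4% of them. Among the weaker conservative distal regions, Ltf 9.28 kb upstream and Padi4 3.62 kb downstream held a match. Those of S100a8, of Mmp8 and of Ltf 28.2 kb downstream held none. The sequences are given on the + strand of the genome, and capitals mark the matches as above.
S100a9, 14.5 kb upstream (chr3:90710211-90710311, + strand): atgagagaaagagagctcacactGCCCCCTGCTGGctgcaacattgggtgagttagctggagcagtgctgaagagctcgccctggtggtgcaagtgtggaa
S100a9, 13.0 kb upstream (chr3:90708677-90708777, + strand): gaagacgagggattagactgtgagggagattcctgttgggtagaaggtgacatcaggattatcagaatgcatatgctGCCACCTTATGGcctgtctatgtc
Ltf, 27.1 kb downstream (chr9:111046348-111046448, + strand): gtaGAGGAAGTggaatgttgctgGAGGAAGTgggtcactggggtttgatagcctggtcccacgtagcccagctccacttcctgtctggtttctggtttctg
Mmp9, 2.33 kb downstream (chr2:164943062-164943162, + strand): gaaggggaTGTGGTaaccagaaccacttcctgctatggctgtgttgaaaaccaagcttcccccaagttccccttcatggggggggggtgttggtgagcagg
Mmp9, 12.6 kb downstream (chr2:164953361-164953461, + strand): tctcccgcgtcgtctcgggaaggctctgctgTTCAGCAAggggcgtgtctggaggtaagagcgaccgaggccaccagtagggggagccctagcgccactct
Padi4, 10.9 kb downstream (chr4:140763292-140763392, + strand): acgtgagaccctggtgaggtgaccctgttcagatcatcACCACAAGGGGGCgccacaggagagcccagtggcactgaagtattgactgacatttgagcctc
Padi4, 13.4 kb upstream (chr4:140787558-140787658, + strand): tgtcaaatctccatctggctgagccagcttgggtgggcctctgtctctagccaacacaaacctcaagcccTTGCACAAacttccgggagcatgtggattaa

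The strongest region of the 10 genes in the conservative and replicated-peaks lists was given to S100a9 and lay 14.5 kb upstream of it, at chr3:90709912-90710401. In the archived list the Ltf region past the end of that gene was stronger, at 15.0 against 13.1 for this one. Its signal was 16.0, at percentile 96.7 of all conservative regions, with 14.1 in replicate 1 and 14.7 in replicate 2 (percentiles 94.4 and 93.3 of their own lists). A second region, 13.0 kb upstream, had a signal of 9.91 (percentile 66.3), with 7.87 in replicate 1 and 10.01 in replicate 2. Both lay between S100a9 and Pglyrp4, a peptidoglycan recognition protein gene without a promoter region, whose start was 16.6 and 18.2 kb from the 2 summits. Each held a CTCF motif match on the − strand, 27 bp from the summit. CTCF matches were in 3 of the 12 distal regions of the genes and in 12.7% of all 48929 distal regions. Between S100a9 and S100a8 the conservative list had no region given to either. S100a8 had 1, 4555 bp upstream, with a signal of 6.56 (percentile 27.4), a peak in the pseudoreplicated list of replicate 2 (5.81) and none in that of replicate 1.

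Ltf had 3 distal regions, and the strongest was past the end of the gene. At chr9:111046172-111046761, 27.1 kb from the upstream start and 7593 bp from the nearest Ltf start, the signal was 13.7 (percentile 90.5), with 12.3 in replicate 1 and 13.2 in replicate 2. The start of Ccrl2, a chemokine receptor-like gene with a promoter region, was 10.8 kb from the summit on the other side. The sequence held 2 PU.1 matches on the + strand. A PU.1 match was in 1 of the 12 distal regions of the genes and in 7% of all distal regions. A weaker neighbour 28.2 kb downstream had a signal of 5.08, with 5.12 in the own IDR-thresholded list of replicate 1. In replicate 2 only the less strict pseudoreplicated list held it (4.28). The third, 9.28 kb upstream, had a signal of 6.49, an IDR of 0.0413, just inside the threshold, and a peak in the pseudoreplicated list of replicate 1 only (5.14).

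Mmp9 had 2 conservative regions, both inside the gene. The intronic one, 2.33 kb from the start at chr2:164942797-164943320, had a signal of 9.87 (percentile 66.1), with 8.91 in replicate 1 and 9.34 in replicate 2. The other overlaps a coding exon 12.6 kb from the start, at chr2:164953118-164953571, and is the one counted as a promoter region because a non-coding start lies 815 bp away. It had a signal of 8.47 (percentile 51.3), with 7.92 and 7.74 in replicates 1 and 2, and a C/EBP match 19 bp from its summit. Such a match was in 3.39% of all promoter regions. Both regions were in the own IDR-thresholded lists of both libraries, and the intronic one ranked higher in each, at percentile 52.8 against 38.4 in replicate 1 and 46.5 against 23.3 in replicate 2. Mmp8 had 2 weak distal regions, 3.88 kb and 4.67 kb upstream, with signals of 5.24 and 4.78 (percentiles 11.5 and 7.54).

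Padi4 had 3 conservative distal regions and, like S100a9, none at its start in that list. The intronic region 10.9 kb downstream (chr4:140763154-140763585) had a signal of 10.1 (percentile 68), with 8.58 in replicate 1 and 9.85 in replicate 2. It held a CTCF match that shares bases with a RUNX match. RUNX matches were in 3 of the 12 distal regions of the genes and in 20.4% of all distal regions. The region 13.4 kb upstream (chr4:140787428-140787927) lay in an intron of the neighbouring Padi3, which itself had no promoter region. Its signal was 9.20 (percentile 59.3), with 7.77 and 9.93 in replicates 1 and 2, and it held the C/EBP match TTGCACAA. A C/EBP match was in 1 of the 12 distal regions of the genes and in 5.73% of all distal regions. The region 3.62 kb downstream was weaker, at 6.17 (percentile 22.3), with 4.96 and 6.14 in the pseudoreplicated lists of replicates 1 and 2.

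Ngp and Cd177 had no distal region in the conservative list and 1 each in the replicated-peaks list. That of Ngp lay 5.75 kb upstream with a signal of 4.56 (percentile 32.1). It had 4.34 in the pseudoreplicated list of replicate 1 and no peak in that of replicate 2. Its summit was also only 5.79 kb from the start of Ptpn23. That of Cd177, in an intron 1.57 kb from the start, had a signal of 5.57 (percentile 45.9). It had 4.06 and 6.69 in the pseudoreplicated lists of replicates 1 and 2. The remaining distal regions given to the 10 genes in that list only had signals from 3.14, for a Padi4 intron region, to 5.75, for a region in the S100a9 intron.

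Recurrence was read against all regions. Of the 14 conservative regions, 8 were in the own IDR-thresholded lists of both replicates, against 50.6% of all conservative regions, 2 were in that of replicate 1 only, 0 in that of replicate 2 only and 4 in neither. In the pseudoreplicated lists 12 of the 14 were in both, against 94.1% of all conservative regions. The 4 regions found in neither thresholded list were S100a8 at 4555 bp upstream, Ltf at 9.28 kb upstream, Mmp8 at 4.67 kb upstream and Padi4 at 3.62 kb downstream. Over the 14, the signal percentile ranged from 7.54 to 96.7 with a median of 55.3, and by construction the median over all regions is near the middle of this scale. Of the 30 regions of the replicated-peaks list, 19 had a peak in both replicates' pseudoreplicated lists, against 63.8% of all regions of that list, 4 in replicate 1 only and 4 in replicate 2 only. For the 19, the percentiles in the 2 libraries differed by a median of 9.5 points and by at most 32.3, and were higher in replicate 1 for 10 and in replicate 2 for 9.

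**Figure D3:**
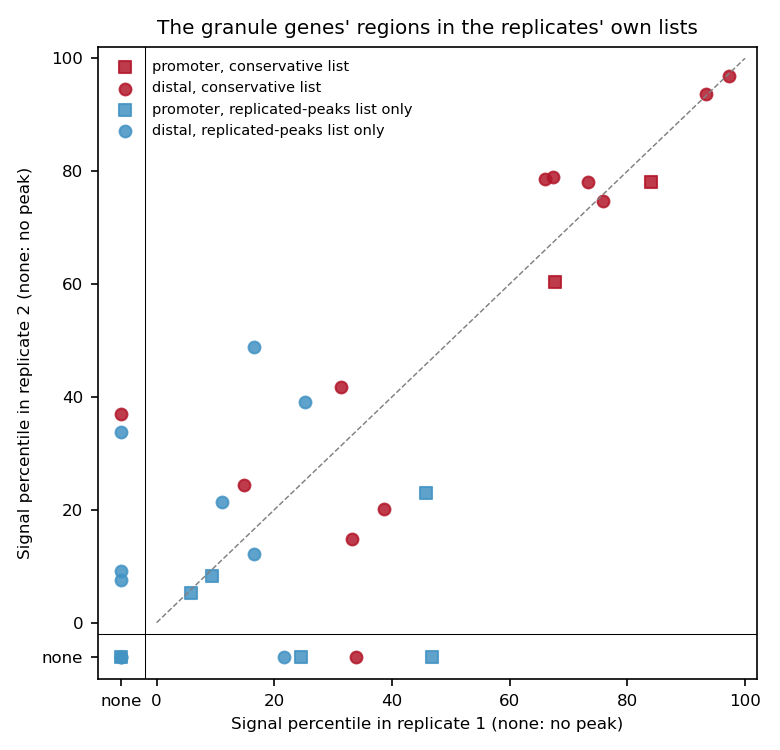
Signal percentile in the pseudoreplicated list of replicate 1 (x axis) and replicate 2 (y axis) for the 30 regions of the replicated-peaks list, as squares for promoter and circles for distal regions, red where the region is also in the conservative list. Points at "none" had no peak in that library's pseudoreplicated list and can lie on top of each other, and the dashed line marks equal percentiles. The S100a9 region 14.5 kb upstream and the Ltf region 27.1 kb downstream are at the upper right in both libraries.

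Accessible regions were frequent around the 10 genes and mostly not at their starts. The median number of conservative regions within 100 kb of the most upstream coding start was 15 for the 10 and 10 over all genes, yet the median distance to the nearest region was 6844.5 bp for the 10 and 0 over all genes. A region lay within 10 kb of that start for 7 of the 10 and for 74.5% of all genes. Other protein-coding genes with a start within 100 kb numbered 55, and 34 of them had a promoter region, against 63.5% of all genes. Some neighbours of S100a8 and S100a9 were counted for both. Neighbours are named here after their values were seen. All 7 neighbours of Lcn2 were open (Golga2, Slc25a25, Ptges2, Dnm1, Naif1, 1110008P14Rik and Ciz1), and the closest region to Lcn2, 5.77 kb from its start, was the promoter region of 1110008P14Rik with a signal of 12.5 (percentile 85.1). All 4 neighbours of Ngp and all 5 of Mmp9 were open too. By contrast 0 of 4 neighbours of Cd177 had a promoter region, and its nearest conservative region was 23.7 kb away. The stretch for which a gene is the nearest start also limits its distal count: it was 8.11 kb for Lcn2 (percentile 7.2 of all genes) and 12.2 kb for Ngp (percentile 12.9), with a median of 29.4 kb for the 10 and 43.5 kb over all genes.

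The promoters of these genes held few CpG dinucleotides, and on chromosomes 1 to 19 the share of open promoters was lower in the classes with fewer CpG. The 9 RefSeq promoters had a median of 4 CpG in 300 bp, from 2 in S100a9 to 8 in Padi4, against 14 for coding promoters in general. With 0 to 3 CpG, 0 of 4 (Lcn2, S100a9, Camp and Ngp) had a conservative region within 1 kb, against 13.7% of 4223 promoters of that class. With 4 to 9 CpG, 1 of 5 (Mmp8, and not S100a8, Padi4, Cd177 or Ltf) had one, against 39.4% of 3585. In the replicated-peaks list it was 1 of 4 (Camp) against 19.3% in the first class, and 4 of 5 (all but Cd177) against 50.4% in the second. None of the 9 was in the class with 10 or more, where 84.5% of promoters had a conservative region. That class held 9602 open promoters, against 577 and 1412 in the other classes.

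**Figure D4:**
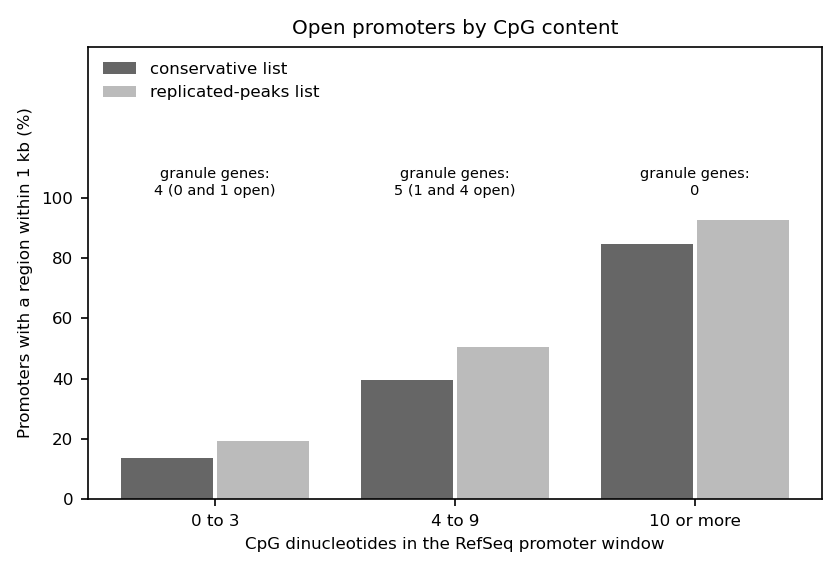
Share of RefSeq promoters with a region within 1 kb (y axis, percent) by the number of CpG dinucleotides in 300 bp (x axis), in the conservative list (dark) and the replicated-peaks list (light), with the number of granule genes in each class and, in brackets, how many of them were open in the 2 lists in that order. The 9 granule genes fall in the first 2 classes, where 13.7% and 39.4% of promoters had a conservative region.

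Genes of the same programme were read by the same rule, against the same 63.5%. Of 8 listed primary granule and promyelocyte genes, 5 had a conservative promoter region. Mpo, the gene of myeloperoxidase, had one of low signal (5.02, percentile 9.46) that was in neither replicate's own IDR-thresholded list, and so did Ctsg, of cathepsin G (6.45, percentile 25.7). Elane, of neutrophil elastase, Prtn3, of proteinase 3, and Ms4a3 had none. In the replicated-peaks list Elane and Ms4a3 had 1 each and Prtn3 had 2. The other 3, Bpi, Gpi1 and Serpinb1a, include Gpi1, a glycolytic enzyme, and Serpinb1a, an inhibitor of elastase, neither of which is itself a granule protease. Of 12 other secondary and tertiary granule genes on chromosomes 1 to 19, 10 had a promoter region, among them Hp, of haptoglobin (11.6, percentile 79.4), and Lyz2, of lysozyme (6.83, percentile 30.6). Several of these are not restricted to neutrophils, such as Itgb2 and Cyba. The 2 without were Olfm4 and Chil3. Hp had the strongest of the 10 and Ltb4r1 the weakest (4.06, percentile 3.12). In the own IDR-thresholded lists, 8 of the 12 had a promoter region in replicate 1, against 59.0% of all genes. In replicate 2 it was 7, against 54.5%. Mmp25 and Ltb4r1 had a promoter region in neither own list. Of the 7 regulators, 6 had a promoter region. All 7 together had 50 distal regions, 22 of them at Runx1. Their median was 5 per gene, against 1 over all genes. Cebpe, of C/EBP epsilon, had a weak promoter region (4.82, percentile 7.85) in neither replicate's own list and 4 distal regions, and Cebpa had a promoter region in both own lists (8.22, percentile 48.7) and 6 distal ones.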

How the data were processed

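ATAC-seq peak lists of 2 libraries were used, 13 in all, on mm10. The aligner, the peak caller and any shift of reads were not given in the sources used here. Lists were derived from filtered alignments of 1 replicate or of both, per the deposited notes, and the archived list from earlier files. The authors' deposited signal per peak has no stated scale and was used within a list only. The deposited −log10 p values were carried along and not tested. The score of the deposited ranked lists, −log10 of the IDR, was turned into the IDR. The 4 part-library columns of the ranked series lists could not be tied to a replicate and were not used.

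Overlapping peaks on chromosomes 1 to 19 were merged, keeping the strongest summit. Percentiles are ranks of signal within a list. A region recurred where it met another by at least 1 bp. Motifs were sought in RefSeq promoters and within 50 bp of summits. All 31396 RefSeq promoter entries were identical to the genome at their coordinates. All 10 genes matched by symbol, and 9 had a RefSeq promoter entry. With 1 group no test was made. No count, depth or interval can be given. Merging, assignment and motif search were tested on simulated data.

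All 10 genes could be named, any listed gene, and the next gene beside a distal region. Some listed genes are not reported here by name. The genes, lists and motifs were chosen with earlier results of these data known. Alternatives were other lists, either replicate alone, the upper 50% by signal, promoter windows of 500 and 2500 bp, a reach of 50 kb, the nearest start of any gene and a reciprocal overlap of 50%. Python 3.11.15, NumPy 2.4.6, pandas 2.3.3 and matplotlib 3.10.9 were used.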

Additional observations from a re-analysis of the deposited data

How the results depend on the processing

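The count of genes with a promoter region, 2, was 6 in the replicated-peaks list, 10 in the archived list and 1 with a window of 500 bp. Alternatives chosen after seeing the data gave 1 with starts of protein-coding transcripts only, 1 with the most upstream coding start only and 6 with all ranked peaks. It was 2 with either replicate left out. The 12 distal regions became 22 in the replicated-peaks list, 43 in the archived list, 6 among the upper 50% by signal, 7 with the nearest start of any gene, and 6 to 8 with a replicate left out (6 without replicate 1). The 4 genes with no region became 1 and 0 in the replicated-peaks and archived lists and 5 with either replicate left out. The median signal percentile, 55.3, was 44.7 in the replicated-peaks list, 44.5 in the archived list and 43.4 to 53.7 with a replicate left out. The remaining alternatives moved no count by over 1.5 times. Leaving out a replicate means using the shorter own list of the other, so list length and library cannot be told apart. The cause of the other moves was not tested, and longer lists hold weaker peaks by their construction. No paired analysis was possible because there is 1 group.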

Other observations

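Among 12 other genes of mature neutrophils, 4 had a conservative promoter region, against 63.5% of all genes. The 12 together had 34 distal regions, with a median of 2.5 per gene against 1 over all genes. Among the genes with one were Csf3r, the receptor of granulocyte colony-stimulating factor (signal 6.23, percentile 22.9), Il1b, of interleukin 1 beta (9.17, percentile 59.1), and Trem1, an activating receptor (9.36, percentile 61.1). Each of these had a promoter region in both replicates' own lists. Ly6g, the antigen by which mouse neutrophils are usually sorted, had no promoter region in the conservative or replicated-peaks list and 3 conservative distal regions. The chemokine receptor gene Cxcr2 and the formyl peptide receptor gene Fpr1 had promoter regions in the replicated-peaks list only, with 4 and 2 conservative distal regions. Fpr2 had 4 conservative distal regions and no promoter region in either list. Stfa1, a stefin gene, had no region of either kind in the conservative or replicated-peaks list.

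Within the S100 cluster, in the conservative list, S100a7a, S100a6, S100a4, S100a3 and S100a2 had promoter regions and S100a8, S100a9 and S100a5 had none. These neighbours were singled out after their values were seen.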
